A study of Mus musculus with 6 samples.

Results

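Intron-encoded microRNAs of the mouse Polycomb-group gene Sfmbt2 were assayed in CD8+ T cells by quantitative RT-PCR with SYBR Green detection. The assays were chosen by name, as mouse-named assays for the guide strand of miR-297, miR-466, miR-467, miR-468 or miR-669, and 7 of the 350 miRNA assays qualified: miR-297a, miR-466d-3p, miR-467b, miR-468, miR-669a, miR-669c and miR-669d. Assays for the opposite (star) strand, of which there were 3, were not counted among them. In all 6 samples the T cells were CD8+ and carried the pMel-1 transgene, whose T cell receptor recognises gp100 of melanoma, and had spent 3 days in culture with the priming cells. DC-primed cells (3 samples) had been activated by dendritic cells grown from bone marrow and matured with lipopolysaccharide, and B cell-primed cells (3 samples) by B cells of the spleen that presented a gp100 peptide; the labels do not say how antigen reached the dendritic cells or whether priming cells were removed. The samples came in 3 rounds, with both groups present once in each. The labels give neither the age of the mice nor whether rounds used separate animals, so p-values cover the spread between the samples, which may be technical. The comparison asked whether the cell that primes a CD8+ T cell changes its miRNA levels.

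A mature miRNA guides an Argonaute protein to messenger RNAs through its seed, bases 2 to 8, and represses them. The cluster lies inside a gene whose expression is imprinted in the placenta, where only the paternal copy is active, and it is specific to rodents; in mice its loss impairs placental growth. Its hairpins arose by repeated duplication and many of their sequences resemble simple UG or CA repeats, so members are hard to tell apart by a primer. Among the members measured, miR-669a is known in mice to restrain skeletal muscle differentiation through MyoD, and miR-467b to repress lipoprotein lipase in mouse macrophages.

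In the RefSeq annotation of the GRCm38.p6 assembly, 82 miRNA genes carry one of the 5 number names, of which 71 lie within Sfmbt2 on chromosome 2 and 11 elsewhere. miR-669a has 12 gene copies, all within Sfmbt2, and miR-669d has 2. miR-466d, miR-467b and miR-669c have 1 gene each, also within it. miR-297a has 4 genes, 3 within Sfmbt2 and 1 on chromosome 7. miR-468 has 1 gene, on chromosome 6, so that assay does not belong to the Sfmbt2 locus by this annotation and is described by its own name below; counts and medians over the 7 cluster assays include it. The hairpins of these 2 genes outside Sfmbt2 are shown to set a miR-297 sequence beside that of miR-468. Both hairpins hold a UG repeat, that of miR-468 being GUGUGU near its end, left in lower case. Both are RefSeq sequences on GRCm38.p6, at chr7:10958437-10958512 (minus strand) and chr6:81896599-81896676 (minus strand); capitals mark the longest UG repeat in the first and the mature miR-468-5p in the second.
Mir297-1 hairpin: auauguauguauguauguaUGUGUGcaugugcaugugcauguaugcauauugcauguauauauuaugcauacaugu
Mir468 hairpin: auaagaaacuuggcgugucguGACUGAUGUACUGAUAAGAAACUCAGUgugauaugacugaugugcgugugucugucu

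The mature sequences of the 7 assays were not matched by name in the RefSeq table. To show what the families look like, mature relatives encoded outside Sfmbt2, which were not assayed, are given from RefSeq on GRCm38.p6 with the seed in capitals. They lie at chr3:85467396-85467418 (plus strand), chr13:17747552-17747573 (plus strand), chr9:115381898-115381919 (plus strand), chr5:34732872-34732892 (minus strand) and chr3:115979905-115979924 (plus strand), in the order listed.
miR-466k: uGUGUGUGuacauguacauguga
miR-466i-3p: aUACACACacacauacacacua
miR-467h: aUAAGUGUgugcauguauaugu
miR-467g: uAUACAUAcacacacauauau
miR-669n: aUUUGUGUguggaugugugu
The 5 seeds differ, also between the pair of miR-466 relatives and between the pair of miR-467 relatives, while the repeats recur. One of the overlapping motifs UGUGUG or GUGUGU, or of their reverse complements CACACA or ACACAC, stood in 8 of the 9 mature miRNAs of these names in the table (88.9%; the exception was miR-468-5p), against 49 of all 1679 mature miRNAs (2.92%).

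Levels are given as minus dCt, the authors' cycle difference with its sign turned, on a log2 scale where 1 unit is 2-fold and a higher value means more miRNA. The raw threshold cycle (Ct) of the 7 assays ran from 24.31 to 32.65 over the 6 samples. All 7 were below Ct 35 in every sample, so they were detected in both groups alike, and all 7 passed the detection filter that left 274 assays for testing. Their mean Ct was 26.0, 26.9 and 29.8 after DC priming (rounds 1, 2 and 3) and 25.7, 26.7 and 26.7 after B cell priming. That was earlier than the mean of all tested assays in every sample, by 0.26, 1.49 and 0.66 cycles after DC priming and by 0.66, 0.48 and 0.97 cycles after B cell priming. The DC-primed sample of round 3 gave the latest Ct for all 7 assays, as for 235 of the 274. A Ct below 35 does not by itself identify the RNA, since 9 of 11 human-named assays for the primate chromosome 19 cluster, which mice lack, also met the limit in all samples. The median of those 9 assays' mean levels was -1.55 after DC priming and -1.73 after B cell priming, against 1.08 and 0.83 for the 7 cluster assays, but the highest of the 9 reached 1.76 after DC priming and 3.79 after B cell priming.

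The labelled cell type was set beside miRNAs of T lymphocytes (miR-150, miR-155 and miR-181a), all 3 of which were tested. B cells share miR-150 and miR-155 with T cells and had no marker of their own here, so remaining priming B cells would not be seen. The median level of these 3 per sample was 2.58 to 5.53 after DC priming and 3.08 to 3.87 after B cell priming. The 3 were not alike. Mean levels after DC and B cell priming were 6.35 and 5.98 for miR-155 and 4.54 and 3.47 for miR-150. For miR-181a they were only -0.50 and -1.81. Of 5 myeloid and dendritic markers 4 were tested, with a median level per sample of -0.25 to 4.05 after DC priming and -1.76 to -1.40 after B cell priming. For the fifth, miR-223, the Ct was 20.8, 27.2 and 37.0 after DC priming (rounds 1, 2 and 3) and 32.1, 32.4 and 32.7 after B cell priming. Of the hematopoietic markers miR-142-5p was tested and miR-142-3p was not, as it has no Ct in the DC-primed sample of round 3; 1 of 2 erythroid and 2 of 4 stromal and endothelial markers were tested. The samples are bulk RNA, in which fewer cells of a type and less RNA per cell cannot be told apart, and the part of other cells in the values below was not tested.

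mmu-miR-297a, the mouse miR-297a assay, had the highest mean level of the cluster, at 0.62, 3.48 and 2.38 after DC priming (rounds 1, 2 and 3) and 1.30, 2.81 and 2.33 after B cell priming. In both groups round 1 was lowest and round 2 highest. The means were 2.16 ± 1.44 after DC priming and 2.15 ± 0.77 after B cell priming (SD over 3 samples each), which placed it at rank 53 and rank 56 of the 274 tested assays. miR-669d stood at 0.83, 2.70 and 1.71 after DC priming and 1.63, 0.78 and 1.94 after B cell priming, with the round 2 samples at the top and at the bottom. miR-466d-3p, from the 3′ arm of its hairpin, stood at 0.29, 2.68 and 1.81 after DC priming and 1.16, 0.67 and 1.48 after B cell priming. Its DC-primed values enclosed all its B cell-primed values.

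miR-669a had levels of -0.12, 1.61 and 0.81 after DC priming and 0.36, 0.06 and 0.64 after B cell priming. Its DC-primed values also enclosed the B cell-primed ones, with an SD of 0.86 and 0.29 in the 2 groups. miR-669c was the steadiest after DC priming, at 1.14, 1.07 and 1.03, an SD of 0.06 over the 3 samples. In B cell-primed cells miR-669c stood at 1.22, 1.14 and 0.12, so that the sample of round 3 lay below the other five. miR-467b was the lowest member by mean in both groups, at -1.76, -1.22 and -1.15 after DC priming and -0.96, -1.44 and -0.67 after B cell priming. The 2 highest values of miR-467b were B cell-primed and the lowest was DC-primed. miR-468 stood at 0.27, 0.38 and -2.19 after DC priming and -0.41, -1.12 and 0.82 after B cell priming, and round 3 held both its lowest and its highest value. In none of the 7 assays were the 2 groups free of overlap, whereas 37 of the 274 tested assays (13.5%) were, 15 with all DC-primed values higher (5.47%) and 22 with all of them lower (8.03%).

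**Figure D1:**
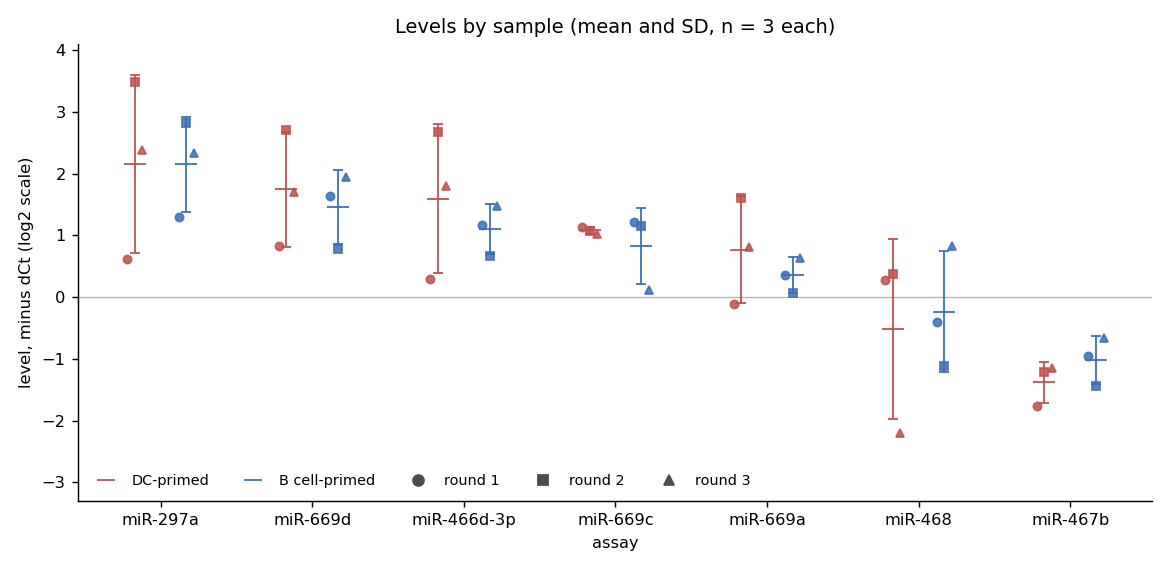
Levels of the 7 assays as minus dCt (log2 scale) in each sample, with DC-primed samples in red to the left of B cell-primed samples in blue; bars are the mean and SD of 3 samples, and marker shapes give the round. The groups overlap for every assay, the DC-primed values of miR-669c lie within 1.03 to 1.14, and miR-468 reaches down to -2.19 in DC-primed round 3.

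The order of the mean levels was the same in both groups, from miR-297a through miR-669d, miR-466d-3p, miR-669c, miR-669a and miR-468 down to miR-467b. No gap between neighbours in this order was larger than the larger of their SDs, in either group. The widest were 1.28 between miR-669a and miR-468 after DC priming, where the SD of miR-468 was 1.46, and 0.79 between miR-468 and miR-467b after B cell priming, where it was 0.98. Levels of different assays also hold the efficiency of each primer, so this order is not an order of molecule numbers. By mean level 5 of the 7 assays lay above the median of the tested assays after DC priming and 6 of 7 after B cell priming. miR-467b was at rank 169 after DC priming and 156 after B cell priming.

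The SD within groups, pooled over both, was 0.36 for miR-467b and 0.44 for miR-669c, the 11th and 20th smallest of 274. It was 0.64 for miR-669a, 0.78 for miR-669d, 0.90 for miR-466d-3p, 1.16 for miR-297a and 1.24 for miR-468. The median of the 7 was 0.78, against 0.98 over all tested assays. In 5 of the 7 assays the spread was wider among DC-primed than among B cell-primed samples, and over all tested assays this held for 218 of 274 (79.6%); miR-467b and miR-669c were the exceptions.

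None of the 7 assays separated the groups in limma's moderated test with Benjamini-Hochberg adjustment over 274 assays, where 0 of 274 were called (0%) and 24 (8.76%) had an unadjusted p under 0.05. No cluster assay had one under 0.05, the smallest unadjusted p in limma being 0.549 (miR-466d-3p) and the smallest adjusted p 0.981. Differences are DC-primed minus B cell-primed. The largest was 0.49 ± 0.78 (SE) for miR-466d-3p, with a 95% interval of -1.29 to 2.26. miR-669a differed by 0.41 (interval -1.18 to 2.00), miR-669d by 0.29 (-1.39 to 1.98) and miR-669c by 0.25 (-1.22 to 1.72). miR-297a differed by 0.01 (-1.99 to 2.01), the third smallest difference in size of the 274. Below 0 were miR-468 at -0.28 (-2.36 to 1.80) and miR-467b at -0.36 (-1.79 to 1.08). All these intervals reach past 1 in size, so a 2-fold difference in level lies within each of them and its absence is not shown.

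Thus 5 of 7 differences were above 0, against 146 of 274 (53.3%) over all tested assays, and none reached 1 in size, against 88 of 274 (32.1%). The median difference of the 7 was 0.25, beside 0.07 over all tested assays. The median of their absolute differences was 0.29, beside 0.59. None of the 7 had 1 sign in all rounds, against 70 of 274 (25.5%).

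The rounds pulled in different directions. In round 1, 1 of 7 assays was higher in the DC-primed than in the B cell-primed sample, with a median difference of -0.68 (all tested assays -0.27). In round 2, 6 of 7 were higher, with a median of 1.50 (all 0.45), led by miR-466d-3p at 2.01, miR-669d at 1.92 and miR-669a at 1.55. In round 3, 4 of 7 were higher, with a median of 0.05 (all -0.03), and miR-468 differed by -3.01. Without DC-primed sample 2 the median difference was -0.18, with 1 of 7 assays above 0, and without DC-primed sample 1 it was 0.75, with 5 of 7 above 0, so single samples set its sign and size. Adding the round as a block gave no cluster assay a smaller unadjusted p than 0.564 in limma.

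**Figure D2:**
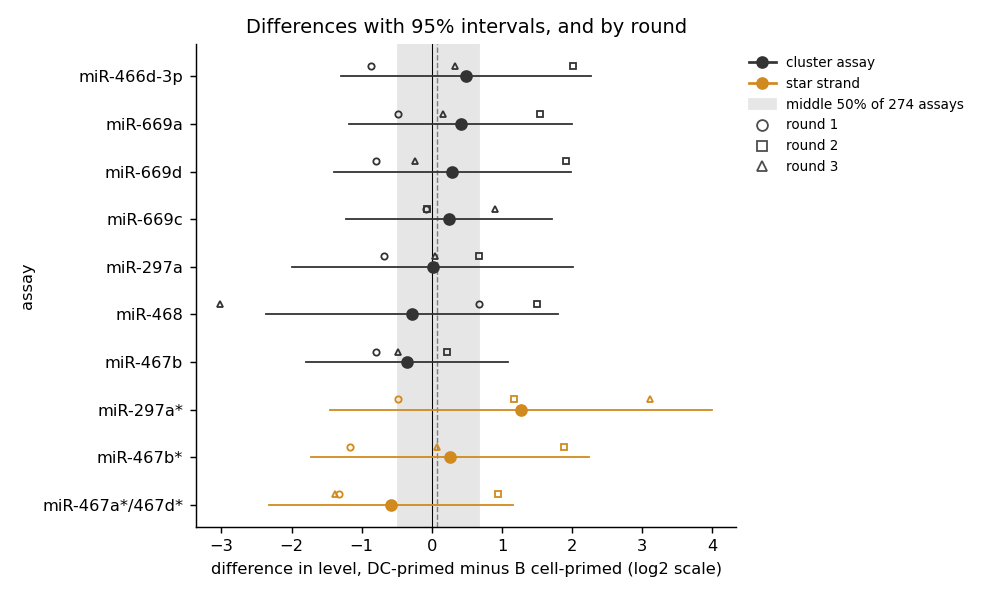
Difference in level, DC-primed minus B cell-primed (log2 scale), for the 7 assays (black) and the 3 star-strand assays (orange): filled points with limma's 95% intervals, open markers the difference in each round, grey the middle 50% of all 274 tested assays (-0.49 to 0.68), and the dashed line their median of 0.07. Every interval includes 0, and the rounds of each cluster assay lie on both sides of 0.

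The authors' deposited table, which holds a paired test on dCt over the 3 rounds for 345 assays, gives p-values from 0.357 (miR-467b) to 0.982 (miR-297a) for the 7 assays. Of the 345 assays, 18 (5.22%) have a p under 0.05 in the authors' deposited table, and the highest-placed of the 7 is at place 133 by p. The fold changes in the authors' deposited table run from 0.781 for miR-467b to 1.40 for miR-466d-3p, DC-primed over B cell-primed.

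Although no level separated the groups, the levels of miR-466d-3p, miR-669a and miR-669d ran together from sample to sample. All 3 were highest in the DC-primed sample of round 2, and miR-466d-3p and miR-669a ranked all 6 samples in the same order. The star strand miR-467b* had that order too. The level of miR-466d-3p minus that of miR-669a within a sample is untouched by any scaling that subtracts 1 number per sample, as the authors' did for these assays. It was 0.41, 1.07 and 1.00 after DC priming and 0.80, 0.61 and 0.84 after B cell priming, an SD of 0.25 over 6 samples. miR-669a minus miR-669d was -0.95, -1.09 and -0.90 after DC priming and -1.27, -0.72 and -1.30 after B cell priming (SD 0.22). miR-466d-3p minus miR-669d was -0.54, -0.02 and 0.10 after DC priming and -0.47, -0.11 and -0.46 after B cell priming (SD 0.27). Over all 37401 pairs of tested assays the median SD of such a gap was 1.55, and in 0.0615% of pairs it was below that of miR-669a and miR-669d. These 3 assays were singled out after their values were seen.

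The correlation over the 6 samples was computed for all 21 pairs of the 7 assays, with exact permutation p-values and Benjamini-Hochberg adjustment over the 21. The permutations exchanged all 6 samples freely, across groups and rounds, so these p-values do not allow for either. For miR-466d-3p and miR-669a Pearson's r was 0.99 (exact permutation p = 0.00139, adjusted 0.0292) and Spearman's rho was 1.00 (exact p = 0.00278, adjusted 0.0583). For miR-669a and miR-669d r was 0.95 (exact p = 0.00833, adjusted 0.0583) and rho 0.89 (exact p = 0.0333, adjusted 0.233), and for miR-466d-3p and miR-669d r was 0.95 (exact p = 0.00833, adjusted 0.0583) and rho 0.89 (exact p = 0.0333, adjusted 0.233). Without the 2 samples farthest from the median of the first assay named, r was 1.00, 0.85 and 0.84 for these 3 pairs. miR-297a correlated with miR-466d-3p and miR-669a at r = 0.73 each (exact p = 0.0889 and 0.0917, adjusted 0.385 each; rho 0.66 each, exact p = 0.175, adjusted 0.613), and without the 2 farthest samples r was -0.16 and -0.11, so that relation rests on those samples. miR-669c had a negative r with each of the other six assays, from -0.67 to -0.16, and no adjusted p under 0.385 among these and the remaining pairs. Without the 2 farthest samples the most negative of these, with miR-467b, turned to 0.32. The others stayed negative, from -0.80 to -0.22. Both assays of a pair were read in the same RNA and share the per-sample scaling number, and 3 samples in a group are too few for a correlation within it.

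**Figure D3:**
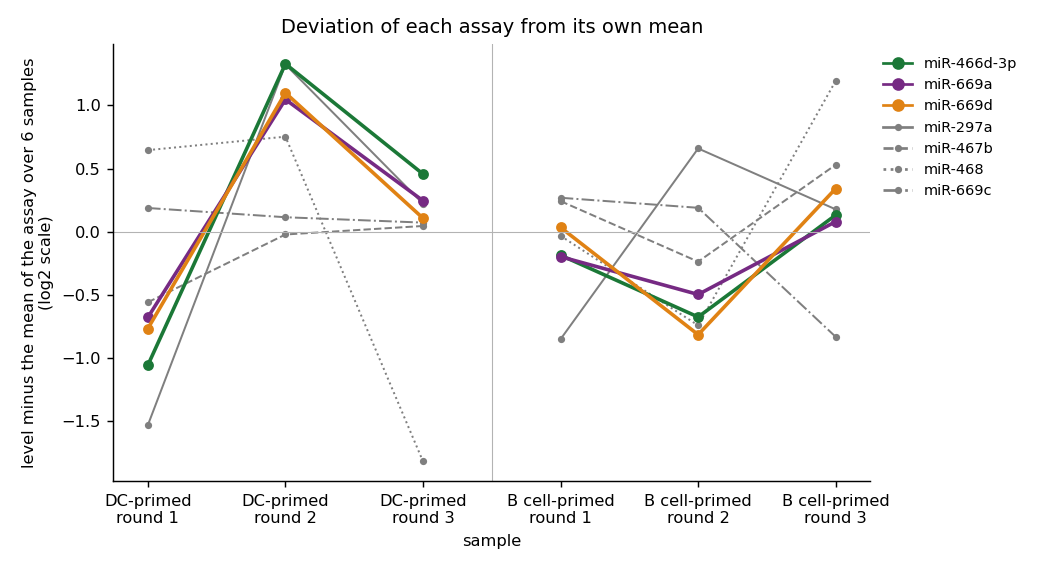
Level of each assay minus its own mean over the 6 samples (log2 scale), DC-primed samples left and B cell-primed samples right; lines only join the points of an assay. miR-466d-3p, miR-669a and miR-669d run together, all with their peak in DC-primed round 2 and their lowest B cell-primed value in round 2, while miR-669c and miR-468 take other courses.

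Gaps within samples also allowed a comparison of the groups that does not depend on the number subtracted from each sample. Over the 21 pairs of the 7 assays the DC-primed and B cell-primed gaps overlapped in 20. The exception was miR-467b minus miR-669a, at -1.64, -2.83 and -1.96 after DC priming and -1.32, -1.50 and -1.31 after B cell priming, a mean of -2.14 ± 0.62 after DC priming and -1.38 ± 0.11 after B cell priming (SD over 3 samples each). Its two-sided exact permutation p was 0.1, the smallest that 3 against 3 samples allow, and 0.9 after adjustment over the 21 pairs. That test exchanges all 6 samples freely; within rounds 1, 2 and 3 this gap differed by -0.32, -1.33 and -0.65, DC-primed minus B cell-primed. An exact sign-flip test over the rounds, added after seeing the data, gave p = 0.25, the smallest that 3 rounds allow, and 1.0 after adjustment over the 21 pairs, of which 3 had 1 sign in all rounds. miR-466d-3p minus miR-467b was 2.05, 3.90 and 2.96 after DC priming and 2.12, 2.11 and 2.15 after B cell priming (exact permutation p = 0.4, adjusted 0.9).

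Of the 3 star-strand assays, miR-297a* differed by 1.27 (interval -1.46 to 3.99), miR-467b* by 0.26 and the assay shared by miR-467a* and miR-467d* by -0.59, and none was called. miR-297a minus miR-297a* was 0.42, -0.62 and -2.11 after DC priming and 0.62, -0.11 and 0.95 after B cell priming, groups that overlapped (exact permutation p = 0.2, adjusted 0.4 over 2 such pairs).

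The 5 mouse-named assays other than the 7 whose levels were most like the mean of the 7 (each centred on its own mean), out of 234 candidates, were miR-294 with a Pearson r of 0.97, miR-141* with 0.94, miR-467b* with 0.91, the muscle miRNA miR-1 with 0.89 and miR-744* with 0.88, over 6 samples that share the per-sample scaling number. They were chosen for this likeness, so no test is given. miR-294, a member of the miR-290 cluster of embryonic stem cells, had levels of -1.25, 1.88 and -0.11 after DC priming and -0.30, -0.01 and 0.66 after B cell priming, again highest in DC-primed round 2 and lowest in DC-primed round 1. miR-467b*, the star strand of a cluster member, stood at -1.95, 0.95 and 0.20 after DC priming and -0.78, -0.94 and 0.12 after B cell priming. By contrast, miR-467b itself had an r of 0.51 with the mean to which it contributes, and miR-669c of -0.30.

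Other groups were measured on the same scale. Of all 274 tested assays 146 (53.3%) were higher after DC priming and 128 were lower. An unadjusted p under 0.05 in limma was found for 24 (8.76%). Of 5 mouse miR-290 to miR-295 and miR-302 assays 4 were tested, as miR-302b failed the detection filter. All 4 were higher after DC priming, with a median difference of 0.29 and 0 called. The primate chromosome 19 cluster assays had 5 of 9 higher, with a median of 0.18 and 0 called. In the miR-17 seed family, known for promoting lymphocyte proliferation, 5 of 6 mouse assays were tested, as miR-106b failed the detection filter. Those for miR-17, miR-20a, miR-20b, miR-93 and miR-106a were all lower after DC priming. Their median difference was -1.75, 3 had an unadjusted p under 0.05 in limma and 0 were called.

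The sign of the cluster's differences followed the scaling, as did the median over all tested assays. Without normalization all 7 were below 0, with a median of -1.08 against -1.26 over all tested assays. With the small RNAs RNY3 and snoRD47 as reference all 7 were above 0, with a median of 1.48 against 1.30. Both of these subtract at most 1 number per sample and so shift every assay's difference alike, which by construction leaves the cluster's median 0.18 above that of all tested assays, as in the authors' scaling. Quantile normalization, which can move assays against each other, gave a median of 0.43 for the cluster against 0.11 over all tested assays, a gap of 0.32.

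**Figure D4:**
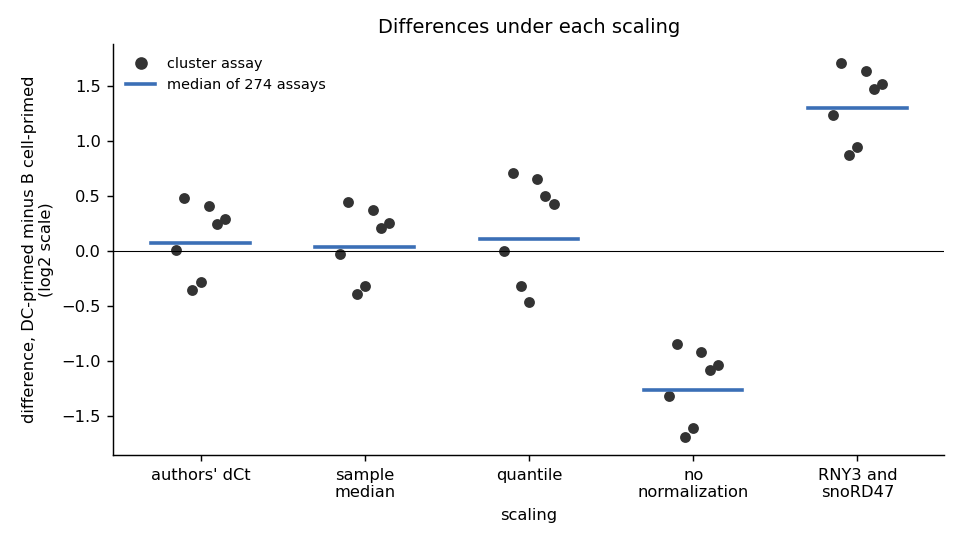
Difference of each of the 7 assays, DC-primed minus B cell-primed (log2 scale), under 5 scalings; black points are the assays and blue lines the median of the 274 tested assays. The points keep their distances from the blue line in 4 scalings, by construction, and their median lies between -1.08 (no normalization) and 1.48 (RNY3 and snoRD47 as reference); under quantile normalization they also move against the line, miR-466d-3p to 0.72 and miR-468 to -0.46.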

How the data were processed

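MicroRNAs were measured in 6 samples, 3 DC-primed and 3 B cell-primed, with group and round taken from the sample titles. Per the labels' protocols, RNA was polyadenylated, reverse-transcribed from oligo-dT primers with a universal tag and amplified with 1 forward primer per miRNA; the instrument is not named in the sources used here. The authors deposited raw Ct for 350 miRNA assays and dCt for 345, both on a log2 scale where a lower value means more miRNA; the names of the deposited files are swapped relative to their headers, and the headers were followed. Per the file headers, dCt was normalized to the geometric mean over a sample's Ct, each deposited p-value comes from a paired two-tailed comparison, and each deposited fold change divides DC-primed by B cell-primed. For the 7 members no value was filled in, and Ct minus 1 number per sample gave dCt with a largest gap of 0 cycles.

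An assay was tested if its Ct was below 35 in all samples (274 assays, 71 left out). The DC-primed sample of round 3 had 280 assays below Ct 35, against 327 to 341 in the other samples, so it weighed most in this filter. Shares and ranks over the 274 hold only for assays detected in every sample. With the limit met in all samples of at least 1 group, 334 assays were tested and their median difference was -0.03. limma 3.58.1 in R 4.3.3 (lmFit, eBayes, no trend, no block) compared the groups over all 274, adjusted by Benjamini-Hochberg and called under 0.05. The fit was tested on simulated data with planted differences larger than any observed. Their SD was capped below the median SD of these data, so that test does not give the power here. Single values were compared by exact permutation, and gaps between assays also by exact sign flips within rounds. Precision is limited by 3 samples a group. Figures used matplotlib 3.10.9 in Python 3.11.15. Named assays were all members and the 5 assays with the highest Pearson r to the members' mean; members and lists were chosen with earlier results of these data known. Deviations from the group means correlated at 0.16, 0.14 and 0.46 within rounds 1, 2 and 3, each over 0.1. The rounds, which come from the titles, were therefore taken to pair the samples in the block fit and the sign flips. The main fit and its intervals did not use this pairing. Between different rounds the correlations ran from -0.42 to 0.33. That of DC-primed round 1 with B cell-primed round 2 (0.33) exceeded 2 of the 3 within rounds. Alternatives were other scalings, Ct limits, the round as a block, a trend fit and samples left out.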

Additional observations from a re-analysis of the deposited data

How the results depend on the processing

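No cluster assay was called under any of the 19 alternatives run, and the lowest adjusted p of any of them was 0.357 (limma, miR-466d-3p without DC-primed sample 1). Over all tested assays limma called 0, except 2 without DC-primed sample 3, so leaving out samples gave 0 to 2. With the round as a replicate block limma called 0, with a smallest adjusted p of 0.0522 over all assays and 0.953 over the cluster, and it changed no call. The median difference of the cluster moved by more than its SD over rounds, 1.11, under 2 scalings: it was -1.08 with no normalization, and 1.48 with RNY3 and snoRD47 as reference; leaving out samples or rounds gave -0.32 to 0.75, and leaving out miR-468 (chosen after seeing the data) gave 0.27. Without normalization the assays above 0 turned negative, miR-297a to -1.32, miR-669c to -1.08, miR-669d to -1.04, miR-669a to -0.92 and miR-466d-3p to -0.84. Relative to RNY3 and snoRD47 miR-468 turned to 0.95 and miR-467b to 0.87. miR-297a was at -0.025 with the sample median as scale and -0.0022 after quantile normalization. Over samples and rounds left out the differences ran from -0.65 to 0.78 for miR-297a, -0.27 to 1.17 for miR-466d-3p, -0.64 to -0.13 for miR-467b, -1.17 to 1.09 for miR-468, -0.16 to 0.86 for miR-669a, -0.10 to 0.45 for miR-669c and -0.52 to 0.84 for miR-669d. A Ct limit of 32 left out miR-468, whose latest Ct was 32.65. The wells of RNY3 and snoRD47 had SDs of 1.59 to 6.05 cycles within a sample, which limits that scaling. These signs rest on differences within the replicate spread.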
